A study of Mus musculus with 55 samples.

Results

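Cytochrome P450 genes of families 1 to 4 were followed in whole-liver RNA of adult C57BL/6 mice with and without the ubiquitin ligases Rnf43 and Znrf3. The members are the genes whose symbol is Cyp, a family number from 1 to 4, subfamily letters and a gene number, that were counted in both sequencing batches and that exceeded 1 CPM (counts scaled to a library total of 1e6) in 3 or more libraries. Of the 80 such symbols counted in both batches 63 met this rule, in 18 subfamilies, among 34490 gene symbols shared by the batches. The 17 symbols that did not meet it included Cyp2ab1, Cyp2t4 and Cyp4x1, which exceeded 1 CPM in 2, 2 and 1 libraries. Just inside the rule, Cyp2b19 and Cyp2j8 exceeded it in 3 libraries each, with highest levels of 7.60 and 1.78 CPM. CPM levels in the later paragraphs also carry a normalization factor of each library (trimmed mean), estimated within its batch.

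All mice carried floxed alleles of Rnf43 and Znrf3 at the exons of the RING domain. Mutant livers had lost these exons in hepatocytes, either through tamoxifen-activated Alb1-CreERT2, where controls received oil, or through an adeno-associated virus carrying Cre under the hepatocyte promoter TBG, where controls received a null virus. Livers called wild-type in the labels are these unrecombined floxed controls. Undamaged livers were sampled at 1 month (4 wild-type and 4 mutant libraries, virus, second batch), 3 months (5 and 2 libraries, tamoxifen in the first batch and virus in the second) and 7 months (5 and 5 libraries, tamoxifen, both batches). Chronically damaged livers had received repeated carbon tetrachloride and recovered for 4 days (2 and 2 libraries), 50 days (1 and 2) or 170 days (2 and 2), all tamoxifen, first batch and listed male. The study's sample list gives both wild-type libraries at 170 days under 50 days as well, so that their time is in doubt and the 50-day and 170-day wild-type values carry this limit. Livers regrowing after partial hepatectomy were sampled at 7 days (3 and 3) and 21 days (3 and 3), all virus and second batch. The methods state that unrecombined littermates in the damage experiment received corn oil only, whereas the labels give the wild-type libraries as chronically damaged. The study's results describe wild-type littermates given the same damage course as the mutants, as the labels do. The methods sentence conflicts with both and was not resolved for each library, and the labels were followed. In 7 first-batch libraries the title and the other labels conflict, and 5 of these were left without a group. The female mutant at 3 months, titled as a mutant at 7 months, and the female wild-type at 7 months, titled as damaged at 170 days, were placed by their characteristics, which the study's sample list matches.

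P450 enzymes of these families are haem proteins of the endoplasmic reticulum that oxidise drugs, toxins, steroids and fatty acids with electrons passed on from NADPH by P450 oxidoreductase. In the liver lobule many of them are confined to hepatocytes around the central vein, where Wnt/β-catenin signalling is active, and a few, such as Cyp2f2, to hepatocytes around the portal tract. Rnf43 and Znrf3 remove Wnt receptors from the cell surface and so limit this signalling. Other members differ between the sexes because male and female mice secrete growth hormone in different patterns.

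The promoters of the genes with the clearest difference in undamaged liver are shown, each from 250 bases before to 50 bases after the annotated start, from RefSeq on GRCm38.p6. Cyp2e1 (chr7:140763569-140763868, plus strand), Cyp1a2 (chr9:57683606-57683905, minus strand) and Cyp2a5 (chr7:26835089-26835388, plus strand) are pericentral genes, and Cyp2f2 (chr7:27119705-27120004, plus strand) is periportal. Capitals mark CTTTGA, the core bound by the Wnt-driven TCF/LEF factors, or its reverse complement TCAAAG.
Cyp2e1: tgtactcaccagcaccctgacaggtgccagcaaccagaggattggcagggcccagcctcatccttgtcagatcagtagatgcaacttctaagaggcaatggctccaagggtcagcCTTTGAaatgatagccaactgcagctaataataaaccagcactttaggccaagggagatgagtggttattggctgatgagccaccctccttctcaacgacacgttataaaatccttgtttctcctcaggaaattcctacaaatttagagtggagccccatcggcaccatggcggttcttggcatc
Cyp1a2: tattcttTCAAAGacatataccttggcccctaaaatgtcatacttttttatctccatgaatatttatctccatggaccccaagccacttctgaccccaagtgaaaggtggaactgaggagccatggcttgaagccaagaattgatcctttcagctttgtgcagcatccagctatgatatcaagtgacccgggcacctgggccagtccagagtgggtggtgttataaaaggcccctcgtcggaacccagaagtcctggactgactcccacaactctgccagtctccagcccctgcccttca
Cyp2a5: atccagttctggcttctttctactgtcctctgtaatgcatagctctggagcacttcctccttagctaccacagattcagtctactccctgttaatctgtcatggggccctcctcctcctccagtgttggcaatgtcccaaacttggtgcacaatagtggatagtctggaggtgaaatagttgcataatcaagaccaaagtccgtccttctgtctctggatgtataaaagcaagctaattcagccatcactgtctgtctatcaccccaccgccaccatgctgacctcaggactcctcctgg
Cyp2f2: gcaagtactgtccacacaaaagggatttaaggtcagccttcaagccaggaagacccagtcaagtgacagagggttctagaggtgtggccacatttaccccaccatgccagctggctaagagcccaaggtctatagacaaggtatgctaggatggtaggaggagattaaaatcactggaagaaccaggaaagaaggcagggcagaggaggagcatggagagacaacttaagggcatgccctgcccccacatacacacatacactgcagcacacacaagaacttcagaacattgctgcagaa
The core occurred once in the Cyp2e1 window, at positions -135 to -130 from the start, and once in that of Cyp1a2, at -243 to -238. The windows of Cyp2a5 and Cyp2f2 held no such letters. Over the 52 members with a promoter entry, 12 (23.1%) held the core on either strand, against 16.2% of 27025 promoters of the same length. AGGTCA or its reverse complement TGACCT, the half-site of nuclear receptors, occurred in 15 of the 52 (28.8%, against 16% of all promoters), among them Cyp2a5 at 29 to 34 and Cyp2f2 at -221 to -216. TTCNNNGAA, the site of the growth hormone-driven factor STAT5, occurred in 2 of the 52 (3.85%, against 8.47%).

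The 53 libraries, 48 of them with a group, held 11721687 to 38692089 counts (median 22982428). The sex listed by the study matched the Xist and Y-linked counts in 47 of the 48. The exception is the third wild-type library at 7 days after hepatectomy, listed male, with 6345 counts of Xist and 1 from Y-linked genes, and results that use it are given with and without it. Rnf43 and Znrf3 transcripts together were at 14.5 to 42.6 CPM in wild-type and 89.8 to 149.8 CPM in mutant livers at 1 month. Counts over whole genes do not check the loss of the floxed exons. In all libraries Cyp2e1 was at 1533 CPM or more, and the hepatocyte markers Alb, Apoa1, Ttr, Tat, Serpina1a and Fgb summed to 50744 CPM or more. The batches were counted against different annotations. Close copies (within the Cyp2c, Cyp3a and Cyp4a genes, Cyp2a4 and Cyp2a5, Cyp2b9 and Cyp2b13) can share reads, so that their separate values are uncertain. In bulk RNA, fewer cells of a type and less RNA per cell cannot be told apart. The labels do not name the animal behind each library, so p-values measure the spread between these samples, which may be partly technical.

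In undamaged wild-type liver of the first batch Cyp2e1 had the highest level per length of the family, at 5604 ± 658 CPM per kilobase (RPKM; SD, n = 4). Cyp2e1 oxidises ethanol and activates carbon tetrachloride. Cyp2f2, which oxidises naphthalene, followed at 1574 ± 706.95 RPKM. Cyp2d10, Cyp2c29 and Cyp2d9 came next at 902 ± 216, 869.9 ± 479.8 and 824 ± 553 RPKM, with spreads that overlapped. The leading genes of the other subfamilies were lower, with Cyp3a11, the main drug-oxidising Cyp3a enzyme, at 438 ± 207 RPKM and Cyp1a2, which oxidises caffeine and arylamines, at 419 ± 95 RPKM. Cyp4a10, a fatty acid hydroxylase, had 172 ± 104 RPKM, Cyp2j5 137 ± 20.4 and Cyp4f14 83.8 ± 4.37 RPKM. The vitamin D hydroxylase Cyp2r1 was at 13.5 ± 3.61 RPKM, and Cyp2s1 and Cyp1b1, better known from other tissues, at 0.226 ± 0.0842 and 0.0354 ± 0.027 RPKM. The SD of 149.7 around the mean of 82.1 RPKM for Cyp2b9 rests on 1 female library among the 4. That library also had the lowest levels of Cyp2d9 and Cyp2f2, 10.4 and 582 RPKM, beside highest levels of 1248 and 2258 RPKM.

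**Figure D1:**
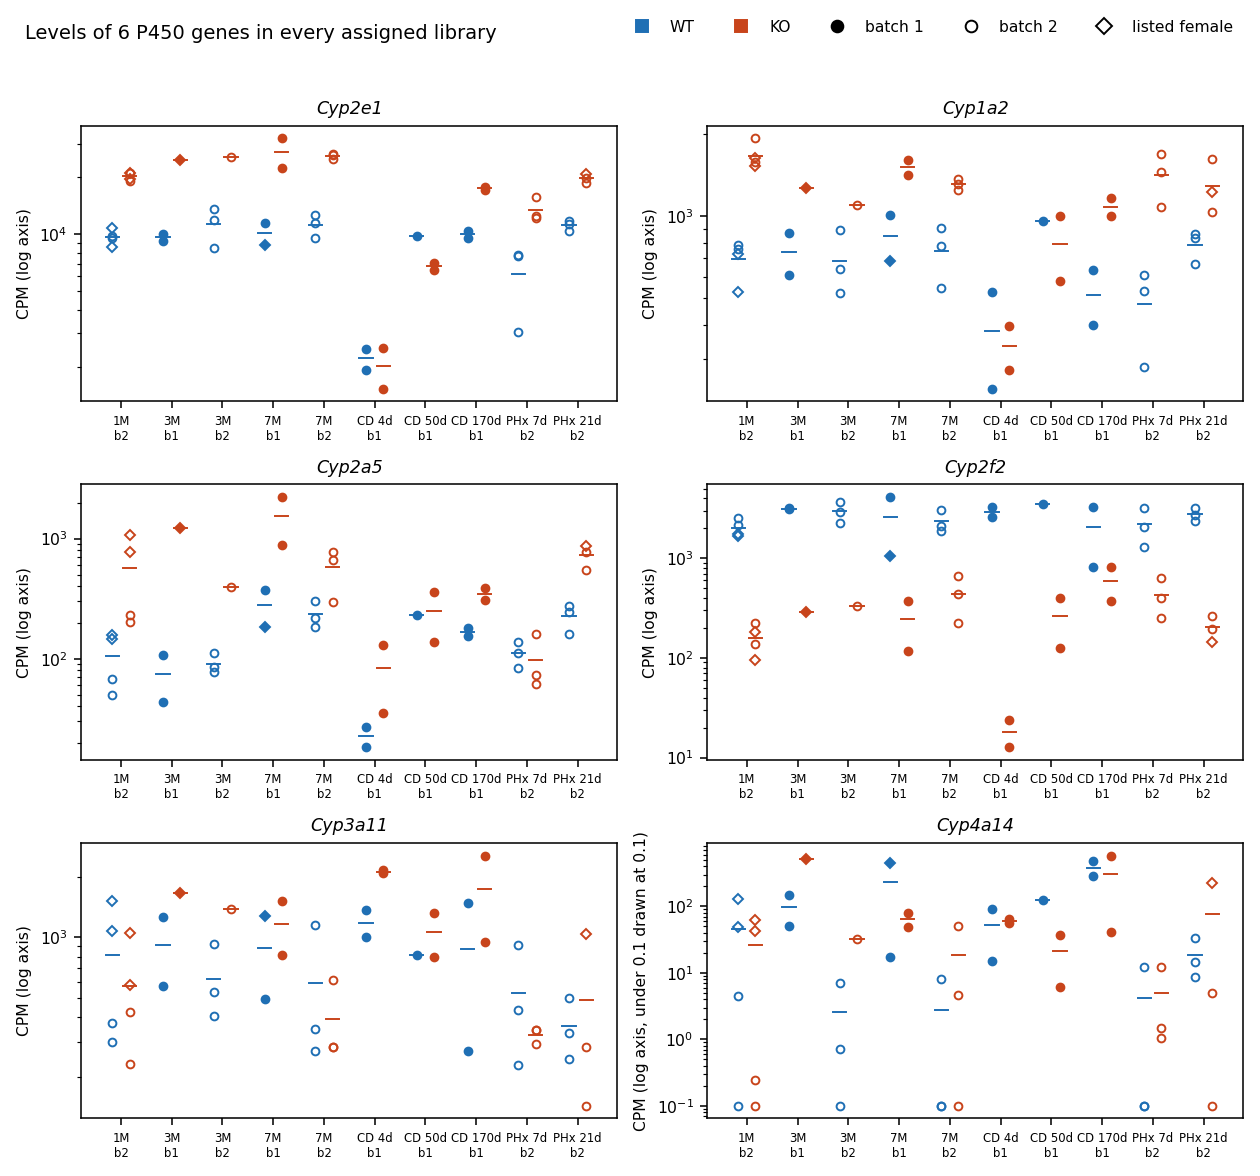
CPM of the marker members in each library of each group on a log scale. Filled points are first-batch libraries, open points second-batch libraries, diamonds mice listed female, and bars group means. Mutant points of Cyp2e1 lie above and those of Cyp2f2 below the wild-type points in all undamaged groups.

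The first question is what loss of Rnf43 and Znrf3 did to the family in undamaged liver. Pericentral Cyp2e1 and Cyp2a5 rose at all 3 times, Cyp1a2 rose by the same rule at 1 month, and periportal Cyp2f2 fell at all 3 times, whereas most of the family did not pass the test. A gene was called changed at an adjusted p under 0.1 and a log2 fold change over 1 in either direction, from edgeR's quasi-likelihood test. At 1 month 5 of 58 members tested were called (8.62%, against 0.436% of all genes), 3 higher (0.218% of all genes) and 2 lower (0.218%). At 3 months 3 were called (5.17%, against 0.226%), 2 higher (0.156%) and 1 lower (0.07%). At 7 months 4 were called (6.9%, against 0.451%), 3 higher (0.249%) and 1 lower (0.202%). The median log2 fold change of the members was 0.02, 0.22 and 0.15 at the 3 times, beside 0.01, -0.09 and -0.02 for all genes. Of the 6 hepatocyte markers, Alb alone was called, lower at each time, and their summed level was 115120.0 to 133694 CPM in wild-type and 57553 to 81402 CPM in mutant livers at 1 month. Its part in these results was not tested.

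Cyp2e1 was at 9577, 9748, 10801 and 8566 CPM in the wild-type libraries at 1 month and at 19524, 21052, 19074 and 20943 CPM in the mutant ones. At 3 months the wild-type libraries had 9237 and 10062 CPM in the first batch and 11829, 13526 and 8444 CPM in the second, and the mutants 24494 and 25458 CPM. At 7 months the wild-type values were 11419 and 8778 CPM in the first batch and 11448, 12663 and 9496 CPM in the second, and the mutant values 31921 and 22225 and then 26252, 24874 and 26431 CPM. Every undamaged mutant library was above every undamaged wild-type library. The log2 fold change was 1.05 ± 0.17 (SE), edgeR adjusted p = 0.00151 at 1 month, 1.27 ± 0.20 (SE), edgeR adjusted p = 0.00235 at 3 months and 1.29 ± 0.15 (SE), edgeR adjusted p = 5.16e-05 at 7 months. The increase at 7 months minus that at 1 month was 0.24 ± 0.22 (SE), edgeR adjusted p = 0.962, with a 95% interval of -0.20 to 0.68. These times also differ in induction, by virus at 1 month and by tamoxifen at 7 months.

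Cyp1a2 had 758, 783, 729 and 525 CPM in wild-type and 1527, 1639, 1578 and 1932 CPM in mutant livers at 1 month. Over the 3 times its undamaged wild-type range was 522 to 1007 CPM and its mutant range 1097 to 1932 CPM, with no overlap. The log2 fold change was 1.25 ± 0.19 (SE), edgeR adjusted p = 0.000873 at 1 month. At 3 months it was 0.84 ± 0.23 (SE), edgeR adjusted p = 0.235, and at 7 months 0.79 ± 0.17 (SE), edgeR adjusted p = 0.0313, below the fold threshold.

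Cyp2a5, which oxidises coumarin and nicotine, was at 49.9, 67.7, 159 and 145 CPM in wild-type and 779, 1062, 202 and 231 CPM in mutant livers at 1 month. The lower mutant values were those of males and the higher ones those of females, and in either sex both mutants were above both wild-type livers. At 7 months the first batch had 373 and 183 CPM against 2222 and 892 CPM in mutants, and the second 304, 216 and 185 against 665, 296 and 776 CPM, where the groups overlapped by 1 library. The log2 fold change was 2.29 ± 0.46 (SE), edgeR adjusted p = 0.019 at 1 month, 2.36 ± 0.51 (SE), edgeR adjusted p = 0.0623 at 3 months and 1.98 ± 0.41 (SE), edgeR adjusted p = 0.0223 at 7 months.

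Cyp2f2 fell from 2525, 2148, 1677 and 1738 CPM in wild-type livers to 182, 94.2, 225 and 137 CPM in mutants at 1 month. At 3 months the wild-type libraries had 3189, 3097, 3676, 2910.1 and 2252 CPM and the 2 mutants 289 and 331 CPM. At 7 months wild-type libraries had 4110.0, 1060.1, 2125, 3029.9 and 1868 CPM and mutants 117, 374, 433, 667 and 223 CPM. No undamaged mutant library reached the lowest wild-type value. The log2 fold change was -3.67 ± 0.40 (SE), edgeR adjusted p = 3.95e-05 at 1 month, -2.98 ± 0.54 (SE), edgeR adjusted p = 0.0109 at 3 months and -2.81 ± 0.35 (SE), edgeR adjusted p = 6.58e-05 at 7 months, the lowest of the members called at each time.

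Among the other Cyp2a genes, Cyp2a12, a testosterone hydroxylase, had 923, 638, 885 and 925 CPM in wild-type and 625, 565, 207 and 310.3 CPM in mutant livers at 1 month, without overlap and with a log2 fold change of -1.08 ± 0.24 (SE), edgeR adjusted p = 0.0475. At 7 months its log2 fold change was -0.68 ± 0.21 (SE), edgeR adjusted p = 0.28. Cyp2a4, a female-biased testosterone hydroxylase and close copy of Cyp2a5, was called higher at 7 months alone (edgeR adjusted p = 0.00384). Its values were 33.9, 3.42, 2.72, 4.07 and 6.95 CPM in the 5 male mutants and 0.915, 226, 0, 0.134 and 0.153 CPM in the wild-type libraries, of which the second is the female. All male wild-type libraries were thus below all male mutants, and those of the second batch were at or near 3 counts, so that no fold change is given.

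The other members of the pericentral list did not pass the test. Cyp2c29 had log2 fold changes of -0.07, -0.20 and -0.13 at 1, 3 and 7 months, and Cyp2c50 0.05, -0.06 and -0.43. Those of Cyp2c54 were -0.53, -0.46 and 0.01, and those of Cyp2c37 0.71, 0.19 and 0.27. The 95% interval at 1 month was -0.69 to 0.56 for Cyp2c29 and -0.54 to 0.65 for Cyp2c50. Cyp3a11 varied widely within groups, from 270.5 to 1271 CPM in wild-type and 285 to 1512 CPM in mutant livers at 7 months, and its log2 fold change there was 0.16 ± 0.43 (SE), edgeR adjusted p = 0.962. Thus 3 of 8 pericentral genes were called at 1 month, and 2 of 8 at 3 and at 7 months, beside 0.436%, 0.226% and 0.451% of all genes.

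None of the 12 Cyp2c, 7 Cyp2d, 8 Cyp3a, 6 Cyp4a or 6 Cyp4f genes tested was called in undamaged liver at 1 or 7 months. The fatty acid hydroxylase Cyp4a14, a target of the lipid sensor PPARα, was at 0 to 443 CPM in wild-type and 0.071 to 80.1 CPM in mutant livers at 7 months. The highest wild-type value is that of the female library, and the male wild-type libraries did not exceed 17.3 CPM, so that the fitted log2 fold change, with sex as a term, was positive at 2.61 ± 1.328 (SE), edgeR adjusted p = 0.592. Cyp2c70, which makes the muricholic bile acids of mice, had log2 fold changes of -0.14 ± 0.30 and -0.50 ± 0.27 (SE) at 1 and 7 months. In the Cyp2d subfamily Cyp2d10 had 0.01 ± 0.22 and 0.57 ± 0.20, and Cyp2d26 -0.18 ± 0.21 and 0.22 ± 0.19.

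Read by libraries within a batch, 5 members lay wholly above and 3 wholly below the wild-type range at 1 month (14.5% of the members present, against 5.03% of all genes). At 7 months the second batch, with 3 libraries in each group, had 4 above and 5 below (19.6%, against 11.7%). The first batch, with 2 in each, had 11 above and 8 below (33.9%, against 42.1%), a share under that of all genes. Without the fourth wild-type library at 1 month 3 members were called (0.296% of all genes). At 3 months the 2 mutants are 1 female and 1 male, all wild-type libraries are male, and with male mice alone or with these 2 groups alone no member was called. Without the male mutant 3 other members were called, the male-biased Cyp2d9, Cyp4a12a and Cyp4a12b, and without the female mutant, the library with conflicting labels, Cyp2e1 alone. Without the female wild-type library at 7 months, whose labels also conflict, 5 members were called there (0.381% of all genes), the 4 together with Cyp2u1. At 7 months 1 member was called in the first batch alone (0.164%) and 3 in the second (0.172%).

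All members together took 2.28 to 2.93% of the counts of undamaged wild-type libraries and 3.28 to 4.63% of mutant ones. Cyp2e1 alone accounted for 0.844 to 1.23% and 2.11 to 2.81%. The other 62 members summed to 1.38 to 1.79% in wild-type and 1.11 to 1.92% in mutant livers, so that the ranges overlapped once Cyp2e1 was left out.

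**Figure D2:**
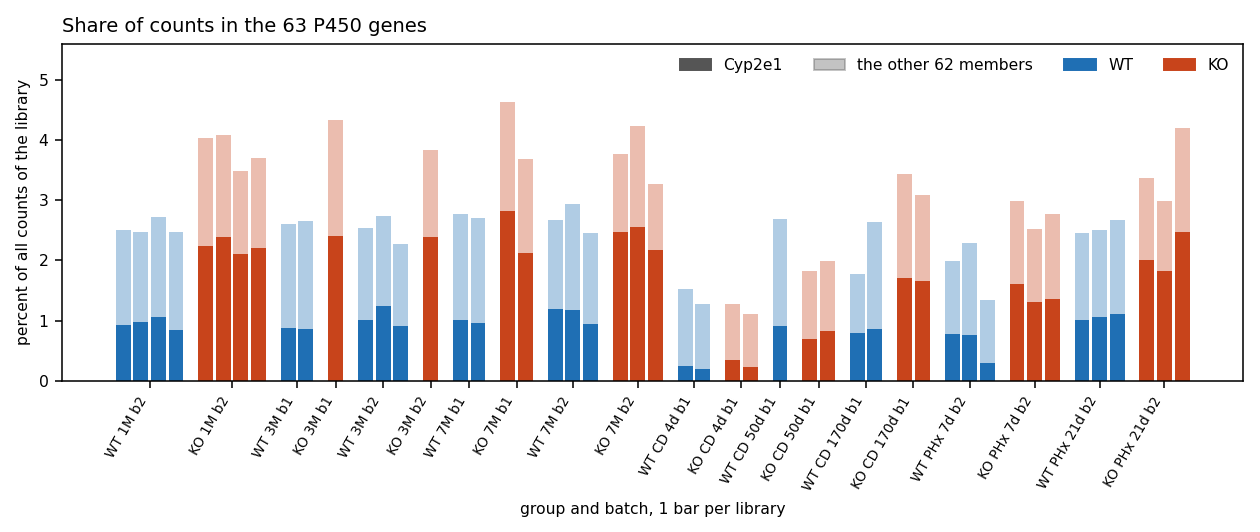
Percent of each library's counts taken by Cyp2e1 and by the other 62 members, as stacked bars from 0, by group. The Cyp2e1 part is larger in undamaged mutant bars, while the part of the other members overlaps between genotypes.

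**Figure D3:**
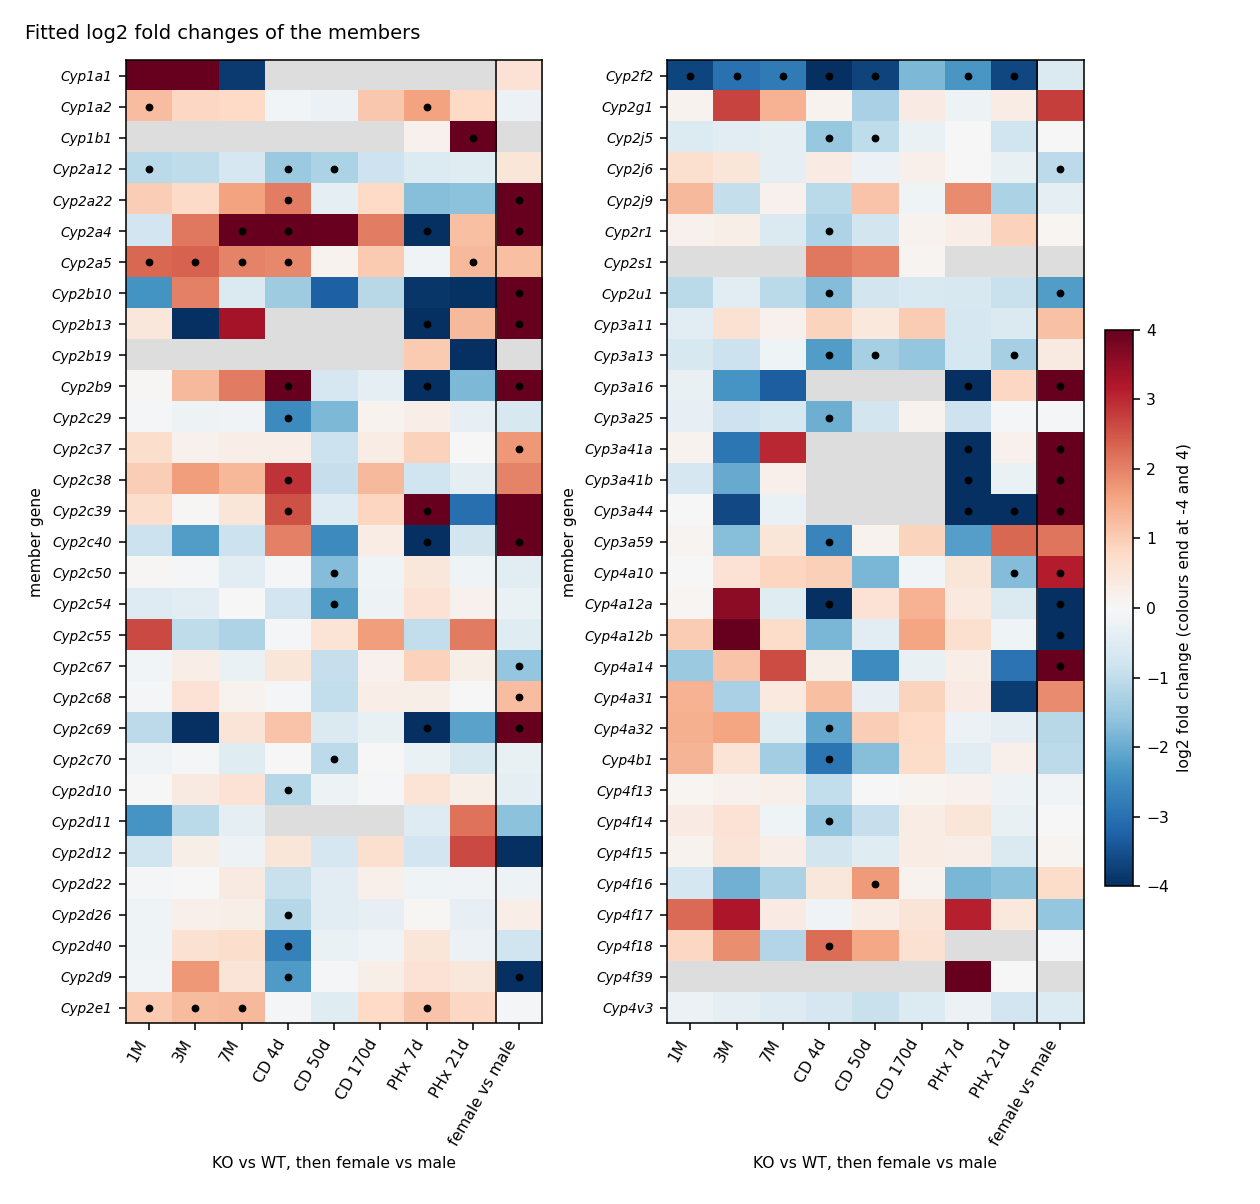
Log2 fold change of the members, mutant against wild-type in each comparison and, in the last column, female against male, with colours ending at 4 in either direction. Dots mark called members and grey marks members not tested. Cyp2f2 is lower in mutants in every comparison of genotypes, and of these comparisons the one at 4 days after chronic damage has the most dots, 24.

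Between female and male mice of the undamaged groups 21 of 58 members were called (36.2%, against 0.918% of all genes), 15 higher (0.436%) and 6 lower (0.483%) in females. All 8 genes of the female-biased list and all 4 of the male-biased list passed in their direction. These lists come from knowledge of the family, and the count describes them only.

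Cyp2d9, a testosterone hydroxylase of males, was at 2221, 1877, 27.1 and 90.5 CPM in the 4 wild-type livers at 1 month, the first pair male and the second female. In the mutants, the first pair female and the second male, it was at 41.9, 51.2, 2135 and 2429.7 CPM. Its log2 fold change between females and males was -5.37 ± 0.36 (SE), edgeR adjusted p = 9.61e-10. Cyp4a12a, a hydroxylase of arachidonic acid, had 372, 297, 0.0435 and 0 CPM in the wild-type and 0.0658, 0.072, 312 and 374 CPM in the mutant libraries in the same orders. Females were at or near 0, and the male ranges of the genotypes overlapped. Cyp2u1, another fatty acid hydroxylase, was lower in females by a log2 fold change of -2.23 ± 0.29 (SE), edgeR adjusted p = 1.47e-05 with batch as a term. Its levels are not compared between the batches, which used different annotations.

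Cyp2c69 had the highest female levels among the genes near 0 in males, at 0.704, 0, 1885 and 1129.6 CPM in wild-type and 813, 763, 0.0831 and 0.0921 CPM in mutant livers at 1 month. Cyp2b9, a relative of the phenobarbital-induced Cyp2b10, was at 0, 0, 360.1 and 669.6 and 624, 427, 0 and 0.0921 CPM, and Cyp3a44 at 0, 0.041, 281 and 307 and 461, 167, 0 and 0 CPM. In all 3 genes the males of both genotypes at 1 month were below 1 CPM. The promoters of Cyp2b9 and Cyp2b13 were identical at 298 of 300 bases (99.3%) and those of Cyp3a41a and Cyp3a41b at 292 (97.3%). Cyp4a10 and Cyp4a14 were also higher in females, by log2 fold changes of 3.15 ± 0.68 (SE), edgeR adjusted p = 0.015 and 5.32 ± 1.43 (SE), edgeR adjusted p = 0.0996. Cyp2e1 and Cyp1a2 were not called, at -0.05 ± 0.14 and -0.22 ± 0.15 (SE).

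Within each sex at 1 month, with 2 libraries a group, mutants had 5 called members in females, 3 higher and 2 lower (0.85% of all genes, 0.337% higher and 0.514% lower), and 5 in males, also 3 higher and 2 lower (0.363%, 0.133% higher and 0.23% lower). Cyp2e1, Cyp1a2, Cyp2a5 and Cyp2f2 were called in both. Cyp2c40 was called in females alone, at 2.21, 1.72, 307 and 291 CPM in wild-type and 101, 133, 2 and 1.47 CPM in mutant libraries, and Cyp2a12 in males alone. The difference in genotype effect between the sexes passed for no member and for 1 gene (0.00886%) at an adjusted p under 0.1 in edgeR, and 9 members had an unadjusted p under 0.05. For Cyp2a12 the difference was 0.98 ± 0.33 (SE), edgeR adjusted p = 0.607, and for Cyp2c40 -1.19 ± 0.42 (SE), edgeR adjusted p = 0.607. Between 7 and 1 months the genotype effect likewise differed in no member by edgeR (0% of all genes), with 7 members at an unadjusted p under 0.05. DESeq2 called 1 (0.809% of all genes). Induction was by virus at 1 month and by tamoxifen at 7 months, and cannot be told apart from time.

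**Figure D4:**
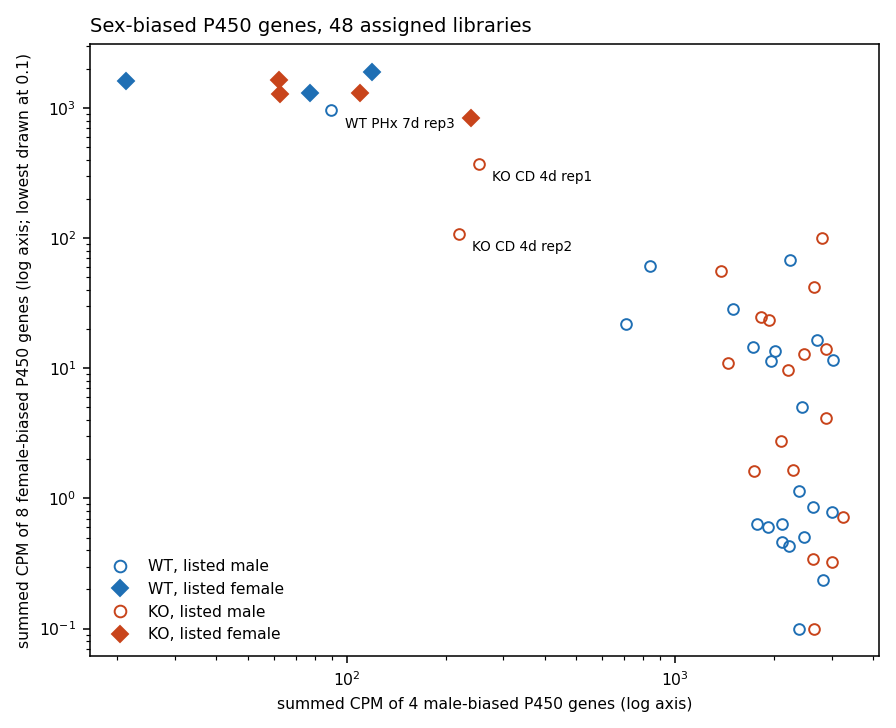
Summed CPM of the 4 male-biased members (x) against that of the 8 female-biased members (y) in each library, on log axes with the lowest values drawn at 0.1. Female libraries lie at upper left and male ones at lower right, the 2 mutant livers at 4 days after damage lie between them on the y axis and near the females on the x axis, and 1 library listed male lies among the females.

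Carbon tetrachloride is toxic once oxidised by P450, mainly Cyp2e1, and injures pericentral hepatocytes. In wild-type liver 4 days after chronic damage, Cyp2e1 and Cyp2c genes were lower than in undamaged first-batch wild-type liver at 3 months. Of 60 members tested 11 were called (18.3%, against 3% of all genes), 2 higher (1.74%) and 9 lower (1.26%). Their median was -0.62 on the log2 scale. Cyp2e1 was at 2494 and 1931 CPM, against 9237 and 10062 CPM undamaged, a log2 fold change of -2.12 ± 0.30 (SE), edgeR adjusted p = 0.00426. Cyp2c54 fell by 3.54 on the log2 scale (edgeR adjusted p = 0.00269), from 596 and 674 to 64.6 and 44.6 CPM. Cyp2c37, Cyp2c38, Cyp2c50 and Cyp2c67 fell too, with log2 fold changes of -2.86, -3.33, -2.57 and -2.84, as did Cyp2j5 and, at low levels, Cyp2c69 and Cyp2g1. Cyp2g1 was at 1.98 and 1.40 CPM undamaged and 0.362 and 0.142 CPM at 4 days. Periportal Cyp2f2 was not called, at 3259 and 2598 CPM and a log2 fold change of -0.10 ± 0.71 (SE), edgeR adjusted p = 0.966. Cyp4f16 and Cyp3a44 were higher, at 6.73 and 8.82 and 1.99 and 3.93 CPM. Months since induction and age also differ between these groups and cannot be told apart from damage, and without the second wild-type library at 4 days 4 members were called.

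Between mutant and wild-type liver at 4 days many members were called, most of them lower in mutants. Of 52 members tested 24 were called (46.2%, against 15.2% of all genes), 7 higher (10.3%) and 17 lower (4.95%). Their median was -0.13 on the log2 scale, beside 0.06 for all genes. Members lower in mutants included Cyp2f2 and genes of the Cyp2d, Cyp3a, Cyp4a, Cyp4f and Cyp2j subfamilies, and the higher ones were Cyp2a and Cyp2b9 together with 2 low Cyp2c genes and Cyp4f18. Markers of bile duct cells were summed at 93.9 and 164 CPM in wild-type and 2704 and 4286 CPM in mutant livers, with 5 of 5 called higher, and stellate cell markers at 38.8 and 71.9 and 140.3 and 382 CPM, with 2 of 4 higher. Alb was the 1 of 6 hepatocyte markers called lower, with sums of 103543 and 104462 against 69785 and 50744 CPM. The part of these cells in the results was not tested. Without the first wild-type library 16 members were called, all of them among the 24.

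Cyp2f2 was at 3259 and 2598 CPM in wild-type and 12.7 and 23.8 CPM in mutant livers at 4 days, a log2 fold change of -7.27 ± 0.91 (SE), edgeR adjusted p = 0.00226. The pericentral markers did not pass, with Cyp2e1 at 2494 and 1931 and 2519 and 1533 CPM, where the groups overlapped (-0.07 ± 0.31 (SE), edgeR adjusted p = 0.892, 95% interval -0.67 to 0.53). Cyp1a2 had 526 and 233 and 397 and 273 CPM (-0.12 ± 0.42 (SE), edgeR adjusted p = 0.861). Cyp2a5 was called higher, at 26.9 and 18.3 against 130.3 and 35.4 CPM (1.93 ± 0.59 (SE), edgeR adjusted p = 0.05), and without the first mutant library its log2 fold change was 0.71 (adjusted p = 0.374 by edgeR). Of the pericentral list Cyp2c29 was called lower, at 657 and 695 against 93.7 and 131 CPM (-2.53 ± 0.54 (SE), edgeR adjusted p = 0.0151). Thus 1 of 8 pericentral genes rose and 1 fell, beside 10.3% and 4.95% of all genes.

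Sex-biased members differed between the genotypes at 4 days. All 4 libraries are male by list and by Xist and Y-linked counts. Cyp4a12a was at 244 and 179 CPM in wild-type and 9.21 and 2.58 CPM in mutant livers (-5.11 ± 0.60 (SE), edgeR adjusted p = 0.00179). Cyp2d9 had 1732 and 511 against 234 and 209.9 CPM (-2.28 ± 0.52 (SE), edgeR adjusted p = 0.0202). Female-biased Cyp2a4 was at 0.507 and 6.24 against 269 and 47.1 CPM (5.59 ± 1.15 (SE), edgeR adjusted p = 0.0136), and Cyp2b9 at 0.398 and 5.32 against 89.8 and 47 CPM (4.63 ± 1.07 (SE), edgeR adjusted p = 0.0206). Of the male-biased list 3 of 4 were called lower (4.95% of all genes). Of the 3 female-biased genes that could be tested 2 were called higher (10.3% of all genes). The third, Cyp2b10, had a log2 fold change of -1.42 and was not called, and the rest of that list could not be tested. The summed male-biased level was 2012 and 707.5 CPM in wild-type and 252 and 219 CPM in mutant livers, and the summed female-biased level 13.5 and 22.1 and 373 and 108 CPM.

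Further members lower at 4 days came from most subfamilies. Cyp3a13, with 210.5 and 218 against 38.5 and 48.8 CPM, fell by 2.24 on the log2 scale, and Cyp3a25 and Cyp3a59 had log2 fold changes of -1.96 and -2.63. Cyp2d40, Cyp2d26 and Cyp2d10 had -2.69, -1.14 and -1.13. The epoxygenase Cyp2j5 had -1.53, Cyp4f14, which inactivates leukotrienes, -1.54, Cyp4a32 -2.09, Cyp4b1 -2.91, Cyp2a12 -1.49, Cyp2u1 -1.74 and Cyp2r1 -1.22. Among the higher genes Cyp2c38, at 3.66 and 5.32 against 38.5 and 26.2 CPM, had 2.90, and Cyp2c39, Cyp2a22 and Cyp4f18, best known from white blood cells, had 2.55, 2.03 and 2.22, none above 13.4 CPM. Cyp2c50, Cyp2c54, Cyp2c67 and Cyp2c70, of which the first 3 were low in damaged wild-type liver, did not pass, at -0.05, -0.78, 0.50 and -0.03. Cyp3a11 was at 997 and 1365 against 2167 and 2083 CPM (0.90 ± 0.69 (SE), edgeR adjusted p = 0.378).

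At 50 days the single wild-type library gives no spread of its own and is taken to vary like the other groups. Here 8 of 52 members were called (15.4%, against 5.58% of all genes), 1 higher (2.64%) and 7 lower (2.94%). Their median was -0.54 on the log2 scale, beside 0.01 for all genes. Cyp2f2 was at 3492 CPM in wild-type and 396 and 127 CPM in mutant livers (-3.70 ± 0.83 (SE), edgeR adjusted p = 0.0646). Pericentral Cyp2c54 and Cyp2c50 were lower, at 668 against 139.8 and 134 CPM and 1272 against 367 and 370.0 CPM, with Cyp2c70, Cyp2a12, Cyp2j5 and Cyp3a13, while Cyp4f16 was higher. Cyp2e1 was not called, at 9784 against 7086 and 6455 CPM (-0.49 ± 0.37 (SE), edgeR adjusted p = 0.452). Bile duct cell markers summed to 112 CPM in wild-type and 607 and 915 CPM in mutants, with 1 of 5 called. Without either mutant library, or at an adjusted p under 0.05, no member was called.

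At 170 days, with both wild-type libraries also listed by the study under 50 days, no member was called by edgeR (0.625% of all genes). Of the 52 members, 10 had an unadjusted p under 0.05. DESeq2's Wald test called 3 (2.56% of all genes). Cyp2e1 was at 9524 and 10443 CPM in wild-type and 17788 and 17117 CPM in mutant livers (0.80 ± 0.31 (SE), edgeR adjusted p = 0.452). Cyp1a2 had 397 and 635 against 1003 and 1165 CPM (1.07 ± 0.42 (SE), edgeR adjusted p = 0.463). In both genes the mutants were above the wild-type libraries. With 2 libraries in each group, 38.5% of the members present and 37.6% of all genes did not overlap, so that this is near the share of all genes. Cyp2f2 had 818 and 3267 against 809 and 376 CPM (-1.78 ± 0.71 (SE), edgeR adjusted p = 0.466), with the first wild-type library close to the mutants. That library also had the higher sum of bile duct cell markers, 301 and 69.7 CPM in the 2 wild-type libraries against 263 and 314 CPM in mutants. The absence of calls depended on the second wild-type library. Leaving it out leaves 1 library in that group and also changed the calls over all genes, so that no count of members is given.

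**Figure D5:**
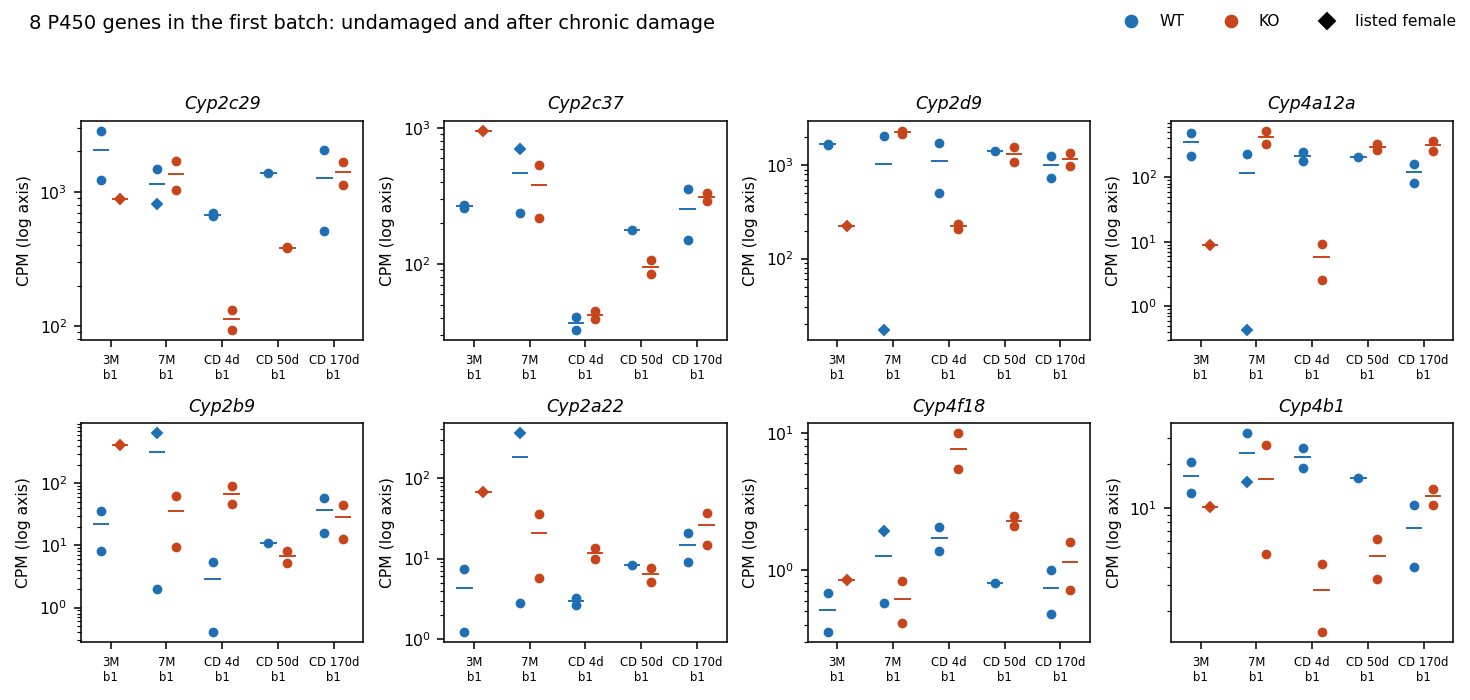
CPM of 8 members in the first-batch libraries, undamaged and at 4, 50 and 170 days after chronic damage, by genotype, on a log scale. At 4 days Cyp2c37 is low in both genotypes, whereas Cyp4a12a and Cyp4b1 are low in the mutant points, below both wild-type points.

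The genotype effect differed between 4 and 170 days in 14 of 52 members (26.9%, against 7.66% of all genes), 2 higher (3.92%) and 12 lower (3.74%) at 4 days. The 170-day side rests on the 2 wild-type libraries whose time is in doubt. The largest differences on the log2 scale were those of Cyp4a12a (-6.50 ± 0.78 (SE), edgeR adjusted p = 0.014), Cyp2f2 (-5.48 ± 1.04 (SE), edgeR adjusted p = 0.0315) and Cyp2b9 (4.99 ± 1.37 (SE), edgeR adjusted p = 0.0841). Cyp2e1, with -0.88 ± 0.43 (SE), edgeR adjusted p = 0.262, did not pass. Between mutants at 170 days and undamaged first-batch mutants at 7 months no gene was called by edgeR (0% of all genes), with 3 members, Cyp2a5, Cyp2d11 and Cyp2r1, at an unadjusted p under 0.05. Cyp2a5 was at 308 and 389 CPM after damage and 2222 and 892 CPM undamaged (-2.16 ± 0.66 (SE), edgeR adjusted p = 0.59).

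After partial hepatectomy the calls follow the study's rule, an unadjusted p under 0.05 with a log2 fold change over 1, and the adjusted p is given beside each value. At 7 days Cyp2e1 and Cyp1a2 rose and Cyp2f2 fell. With all libraries 13 of 59 members were called (22%, against 3.99% of all genes), 3 higher (1.67%) and 10 lower (2.33%), and at an adjusted p under 0.1 there were 5 (0.274% of all genes). Of the 10 lower members, 9 (Cyp2a4, Cyp2b9, Cyp2b13, Cyp2c40, Cyp2c69, Cyp3a16, Cyp3a41a, Cyp3a41b and Cyp3a44) are genes high in females that were above 1 CPM in the wild-type group through the third library, which reads as female. Cyp2a4, for example, was at 0.0622, 0.128 and 279 CPM in the wild-type and 0.0575, 0 and 0.0492 CPM in the mutant libraries. The higher Cyp2c39 rested on 1 mutant library at 17 CPM.

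Cyp2e1 was at 7750.0, 7636 and 3045 CPM in wild-type and 15601, 12445 and 12105 CPM in mutant livers at 7 days (1.14 ± 0.22 (SE), edgeR adjusted p = 0.0232). Cyp1a2 had 533, 609 and 281 against 1453, 1086 and 1699 CPM (1.59 ± 0.24 (SE), edgeR adjusted p = 0.00314), and Cyp2f2 2079, 3212 and 1306 against 640.0, 249 and 397 CPM (-2.34 ± 0.33 (SE), edgeR adjusted p = 0.00183). None of these overlapped between genotypes, where 21.6% of the members present and 12% of all genes did not overlap. Without the third wild-type library 6 members were called, 4 higher and 2 lower (3.16% of all genes), and 4 of these are among the 13, with Cyp2b9 in the opposite direction. Cyp1a2 then had a log2 fold change of 1.329 ± 0.22 (SE, edgeR adjusted p = 0.0116), and Cyp2f2 one of -2.60 ± 0.32 (SE, edgeR adjusted p = 0.000702). Cyp2e1, with 0.82 ± 0.13 (SE, edgeR adjusted p = 0.00718), came under the fold threshold. The others called were Cyp2c39, Cyp2b9 and Cyp4a14, higher and at or below 17 CPM in mutants, and Cyp2u1, lower at -1.06 ± 0.33 (SE, edgeR adjusted p = 0.639). With that library entered as female, 10 members were called (4.09% of all genes), 8 higher and 2 lower, 6 of them among the 13. Of these 6, Cyp2b9 and Cyp3a44 were now higher, with log2 fold changes of 3.74 and 4.84, and 4 kept their direction. None of the 9 genes was lower by the rule. Cyp2a5 was not called at 7 days, at 111, 138 and 83 against 159.7, 61.8 and 73.4 CPM.

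At 21 days 6 of 59 members were called (10.2%, against 6.56% of all genes), 2 higher (3.05%) and 4 lower (3.52%), and 1 at an adjusted p under 0.1 (0.329% of all genes). Cyp2f2 was at 2729, 2336 and 3179.8 CPM in wild-type and 196, 266 and 145 CPM in mutant livers (-3.63 ± 0.36 (SE), edgeR adjusted p = 8.8e-06). Cyp2a5 had 245, 159 and 273 against 543, 780.2 and 862 CPM (1.28 ± 0.36 (SE), edgeR adjusted p = 0.217). Cyp3a13 fell from 124, 169 and 168 to 34.7, 63.2 and 134 CPM (-1.327 ± 0.35 (SE), edgeR adjusted p = 0.187), with the female mutant, the third, within the wild-type range. Cyp4a10 was called lower with sex in the model, at 81.1, 299 and 125 against 32.4, 83.3 and 488 CPM (-1.74 ± 0.56 (SE), edgeR adjusted p = 0.333), where the female mutant was the highest library. Cyp3a44 and Cyp1b1 rested on 1 library each, the female mutant for Cyp3a44, and 1 mutant at 10.05 CPM with all others at 0 for Cyp1b1. Cyp2e1, at 10343, 11372 and 11734 against 19854, 18566 and 20849 CPM, did not overlap between genotypes and stayed under the fold threshold (0.81 ± 0.22 (SE), edgeR adjusted p = 0.204), as did Cyp1a2 (0.79 ± 0.24 (SE), edgeR adjusted p = 0.298). Of the members present 22.2% did not overlap between genotypes at 21 days, against 11.7% of all genes. All members took 2.45 to 2.67% of counts in wild-type and 2.99 to 4.20% in mutant livers at 21 days.

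Partners and regulators of the family were read from fixed lists. Of 7 genes for electron transfer and haem handling, among them Por, Cyb5a, Alas1, the first enzyme of haem synthesis, and Hmox1, which breaks haem down, none was called in any of the mutant against wild-type comparisons. Of the regulators, Nr1i3, the xenobiotic receptor CAR, was at 26.2 and 18.8 CPM in wild-type and 89 and 47.5 CPM in mutant livers at 4 days after damage (1.66 ± 0.31 (SE), edgeR adjusted p = 0.00966), and Cebpa, a hepatocyte transcription factor, at 183 and 153 against 90.0 and 71 CPM (-1.01 ± 0.24 (SE), edgeR adjusted p = 0.0226), 2 of 12 tested (16.7%, near the 15.2% of all genes called there). At 7 days after hepatectomy Bcl6, a male-biased repressor, and Cux2, a female-biased regulator, were called lower, 2 of 13 (15.4%, against 3.99% of all genes). Cux2 was at 0.0622, 0.0642 and 28.6 CPM in wild-type and 0.575, 0.0552 and 0 CPM in mutant livers, so that its call rests on the third wild-type library. Bcl6 was at 12.8, 22 and 28.4 CPM in mutant livers, below all 3 wild-type libraries. Ahr, the receptor that drives Cyp1a genes, was called higher at 21 days after hepatectomy (1.46 ± 0.58 (SE), edgeR adjusted p = 0.51). The unadjusted rule used there called 6.56% of all genes, 3.05% higher, so that this call is not set apart from them. Glul, a Wnt target of pericentral hepatocytes, was at 66.3 to 234 CPM in undamaged wild-type and 304 to 1355 CPM in undamaged mutant livers, and at 58.1 and 21.4 against 47.9 and 37.8 CPM at 4 days after damage (0.17 ± 0.48 (SE), edgeR adjusted p = 0.833).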

How the data were processed

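Liver RNA libraries were sequenced by the authors in 2 batches. Per the labels and the submitters' processing notes, reads were trimmed with Trim Galore, aligned to mm10 with STAR 2.5.0a and counted per gene with featureCounts 1.5.0-p1 or 1.5.0-p3. The deposited values are whole-number counts per gene, without normalization, against 49997 gene symbols in one batch and 49568 in the other, of which 34490 were shared and used.

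Samples were grouped by their labels, and sex was taken from the study's sample list. CPM levels were computed from the counts by library total and a trimmed-mean factor estimated within each batch. RPKM divided these levels by the deposited gene lengths of the first batch. The rules for members and tested genes, and the shares of counts, used plain library totals. Counts were tested with edgeR 4.0.16 (limma 3.58.1, R 4.3.3; glmQLFit and glmQLFTest, trimmed-mean normalization) in models after the study's methods: undamaged livers with group, sex and batch (25 libraries, 12848 genes, 58 members), chronic damage with group (11 libraries, 11358 genes, 52 members), hepatectomy with the undamaged 1-month livers, group and sex (20 libraries, 12773 genes, 59 members), and the first batch with group and sex (18 libraries, 12608 genes, 60 members). Genes needed over 1 CPM in 3 libraries, or at least 1 CPM in 6 for chronic damage. P-values were adjusted by Benjamini-Hochberg over all genes of a model. Standard errors are the log2 fold change over the root of its F statistic. Depth limits low genes: 3 counts were taken as the floor.

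The sequence windows came from RefSeq. The members and gene lists were chosen with earlier results of these data known. Named were the marker members, members called in a comparison, those among the 5 highest or lowest fold changes with a mean over 5 CPM, the leading gene of each subfamily and the fixed lists. Alternatives were DESeq2 1.42.0, no low-count filter, fewer groups or one batch or sex, no sex term, replicate blocks and leaving out each library. The analysis code (Python 3.11.15) was tested on simulated data. Of 7 libraries whose titles and characteristics conflict, 5 were assigned to no group and 2 were placed by their characteristics, which the study's sample list matches, and 2 mutant samples at 3 months were not analysed here.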

Additional observations from a re-analysis of the deposited data

Results flagged for a closer look

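In wild-type liver at 1 month, Cyp2a12 had 637.894 CPM in the second library, farther below the next, at 885 CPM, than Dixon's test allows for a group of 4. It was 1 of 14 gene and group pairs tested, and chance marks about 1 in 20.

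The mutant against wild-type log2 fold change differed between 4 and 170 days after chronic damage in 14 members by edgeR's test of the difference. It was higher at 4 days for Cyp2b9 (4.99) and Cyp2c38 (1.61). It was lower for Cyp4a12a (-6.50), Cyp2f2 (-5.48), Cyp4b1 (-3.64), Cyp4a32 (-2.89), Cyp2c29 (-2.67), Cyp2d40 (-2.55) and Cyp2d9 (-2.51). Smaller differences were found for Cyp4f14 (-1.83), Cyp2r1 (-1.38), Cyp2j5 (-1.25), Cyp4f13 (-1.09) and Cyp4f15 (-1.02).

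In the 5 first-batch libraries without a group, pericentral members reached levels above those of undamaged first-batch wild-type libraries. All 5 read as female from Xist and Y-linked counts, whereas these wild-type libraries are male apart from the female at 7 months. The part of sex was not tested. Cyp2e1 was above the highest of these, 11419 CPM, in 4 of the 5, with a highest value of 18643 CPM. Cyp1a2 exceeded the highest of these, 1007 CPM, in 2, up to 1510.4 CPM, and Cyp3a11 exceeded 1271 CPM in 3, up to 2425 CPM.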

How the results depend on the processing

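Fold changes under the alternatives were tallied only for the marker members and for members called in the main run of a comparison. Of these results 1270 kept their direction and their side of the threshold, 181 lost the call, 17 gained one and 45 changed sign. In no case was the cause tested. Calls gained by other members are not in this tally and show only in the counts below. Percentages in brackets are the share of all genes called in the same setting. Without a low-count filter 7 members (0.316%) were called at 3 months. After damage that setting gave 37 (13.6%), 17 (7.7%) and 10 (2.76%) at 4, 50 and 170 days. It gave 10 (5.36%) at 21 days after hepatectomy and 24 (4.98%) for damage in wild-type liver. For mutants at 170 days against undamaged ones it gave 8 (2%). DESeq2's Wald test called 8 (1.03%) at 3 months, 13 (9.19%) and 3 (2.56%) at 50 and 170 days, and 5 (5.06%) at 7 days after hepatectomy. It called 1 each for the differences between 7 and 1 months (0.809%) and with sex (2.22%). The likelihood ratio test called 6 (0.467%) at 3 months and 2 (2.43%) at 170 days. Male mice alone gave 2 (0.109%) at 1 month, and at 3 months they leave 1 mutant library, so that no count is given here. The compared groups alone gave 0 (0%) at 3 months and 13 (9.58%) at 50 days. Fits without a sex term gave 2 (0.366%) at 7 months and 8 (3.92%) and 12 (6.43%) at 7 and 21 days after hepatectomy. The first batch alone gave 1 (0.164%) at 7 months. An adjusted p under 0.05 gave 0 (0.22%) at 50 days, and one under 0.1 gave 5 (0.274%) and 1 (0.329%) after hepatectomy. Without the third wild-type library the latter gave 2 (0.164%) at 7 days. That setting was chosen after seeing the data, like that library's entry as female and the crossed pairs.

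Whether the replicate numbers in the labels pair the samples is not known. Deviations of same-numbered libraries correlated between -0.352 and 0.44. At 4 days after damage the same-numbered libraries matched best (0.355), and at 170 days they did not (-0.352). With 2 libraries in a group the deviations mirror each other, so that this check cannot decide there. With a replicate block 5 members (0.69% of all genes) were called at 1 month and 0 (0%) at 7 months. The block gave 33 (18.3%) and 0 (0%) at 4 and 170 days after damage, and 7 (3.27%) and 8 (3.4%) at 7 and 21 days after hepatectomy. At 7 months replicates 2 and 5 pair libraries of different batches, and the block model held no batch term. The 0 at 7 months therefore cannot tell pairing from batch. Crossed pairs at 170 days gave 1 (0.405%). No paired analysis was possible for 3 months and 50 days because the compared groups share fewer than 2 numbers within a batch.

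Leaving out each library in turn, called members numbered 3 to 5 at 1 month, 1 to 3 at 3 months, 0 at 50 days, 0 to 9 at 170 days, 6 to 16 at 7 days after hepatectomy and 4 to 9 for damage in wild-type liver (7 without its second undamaged library). At 21 days after hepatectomy 4 were called without the first or second mutant or the third wild-type library, and at 3 months 2 without any of 3 wild-type libraries. Signs changed for log2 fold changes within these ranges: Cyp4a14 -2.70 to 2.36 and Cyp3a11 -0.57 to 1.19 at 3 months, Cyp3a11 -0.16 to 0.71 at 7 months, Cyp2e1 -0.47 to 0.24, Cyp1a2 -0.59 to 0.57 and Cyp4a14 -0.54 to 2.07 at 4 days, Cyp1a2 -0.68 to 0.10 at 50 days and Cyp4a14 -3.22 to 0.61 at 170 days. At 7 days after hepatectomy they were Cyp4a14 -1.67 to 7.06, Cyp2b13 -13.51 to 1.06, Cyp2b9 -7.42 to 2.42, Cyp3a41a -8.03 to 0.22, Cyp3a44 -8.21 to 0.75 and Cyp3a11 -1.02 to 0.0109. For damage in wild-type liver they were Cyp4a14 -2.72 to 0.0718, Cyp3a11 -0.10 to 1.04 and Cyp2f2 -0.27 to 0.0526, and for mutants at 170 days against undamaged ones Cyp4a14 -0.68 to 3.16 and Cyp3a11 -0.31 to 1.13.

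Other sign changes concerned Cyp3a11 at 7 months (-0.0803 with its 2 groups, -0.16 without a sex term, -0.0307 in males, -0.59 in the second batch), Cyp2e1 between the sexes (0.0141 at 1 month alone), and, with the third wild-type library at 7 days after hepatectomy as female, Cyp2b13 2.27, Cyp2b9 3.74, Cyp3a16 1.85, Cyp3a41a 1.41, Cyp3a44 4.84 and Cyp3a11 0.0854. Without a sex term at 21 days they were Cyp3a44 8.13, Cyp4a10 0.24, Cyp4a14 1.98 and Cyp3a11 0.42. Depth limits genes near 3 counts, and the 2 or 3 libraries of most groups limit the rest.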

Other observations

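The 5 libraries without a group all read as female from Xist and Y-linked counts. Cyp2e1 was at 15302, 11709, 18643, 18079.9 and 10238 CPM in them, and Cyp2f2 at 891, 83.8, 259, 131 and 2347 CPM in the same order. The libraries high in Cyp2e1 were not always those low in Cyp2f2. Cyp4a14 ranged from 111 to 335 CPM, within the 17.3 to 443 CPM of undamaged first-batch wild-type libraries.

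Of the members better known from other tissues, Cyp4f18 was at 1.38 and 2.06 CPM in wild-type and 5.44 and 9.97 CPM in mutant livers 4 days after chronic damage, and Cyp1b1, which oxidises oestradiol, at 0 and 0.461 and 1.13 and 1.92 CPM. Immune cell markers summed to 479 and 1010.2 CPM in these wild-type and 316 and 578 CPM in these mutant livers, and their part was not tested.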
